A study of Mus musculus with 6 samples.

Results

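The genes described here are 38 interferon-stimulated genes, a set of antiviral and immune-defence genes whose transcription is turned on by interferon. They were chosen by gene symbol from a table of brain messenger RNA, and 38 of the 38 symbols were found among its 18491 genes. By the interferon best known to induce them, 34 were placed in a type I class and 4, the interferon-inducible GTPases Gbp2, Gbp3, Igtp and Irgm1, in a type II class. The classes overlap, since many genes of each also answer the other interferon. The brains came from C57BL/6N mice at postnatal day 28, with 3 Mettl5-/- samples and 3 wild-type samples, and each library is named here by genotype and replicate number. Mettl5 encodes an enzyme that methylates 18S ribosomal RNA, and no treatment or other allele is named in the labels. The labels do not say which part of Mettl5 is missing. They do not tie each library to an animal of its own either, so p-values measure the spread between these libraries, which may be technical. Levels are FPKM, fragments counted per kilobase of transcript and normalized to the size of the library. They summed to between 350727 and 377334 per library, and the sequencing depth is unknown. Mettl5 itself (gene ID 75422; chromosome 2, 69871195 to 69886634, GRCm38) was still detected, at 2.79, 3.81 and 2.40 FPKM in Mettl5-/- libraries 1, 2 and 3, against 4.78, 5.16 and 5.92 FPKM in wild-type libraries 1, 2 and 3. Its log2 fold change was -0.66 (SE 0.15, n = 3 each), with an adjusted p of 0.79 in limma, and an exact permutation gave p = 0.1, the smallest that 3 against 3 allows. All 3 knockout values lay below all 3 wild-type values. Mettl5-/- library 2 stood apart through genes known from the cerebellum, chosen after their values were seen. Pcp2, a Purkinje cell gene, had 2.30, 274 and 0.30 FPKM in the Mettl5-/- libraries, against 0.48, 13.35 and 0 FPKM in the wild-type libraries. Gabra6, a gene of cerebellar granule cells, had 0.16, 86.25 and 0.21 FPKM in the Mettl5-/- libraries, against 0.08, 4.77 and 0.03 FPKM in the wild-type libraries. Both were thus high in Mettl5-/- library 2 and next highest in wild-type library 2. Without Mettl5-/- library 2, 0 of 32 interferon-stimulated genes tested had an unadjusted p under 0.05 between genotypes in limma, against 8.13% of all genes, as with it.

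Interferons alpha and beta, the type I interferons, bind a receptor made of IFNAR1 and IFNAR2. The kinases JAK1 and TYK2 then act on a complex that holds STAT2 and IRF9 and binds the interferon-stimulated response element (ISRE) in the promoters of its targets. Interferon gamma, the type II interferon, acts through its own receptor, JAK1 and JAK2 on promoters that hold the gamma activated site (GAS), and it also induces the transcription factor IRF1. In the brain, microglia, astrocytes, endothelium and neurons can all respond, and a low tonic expression of these genes is found without infection.

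Interferons of both types act through short elements in promoters, and 8 promoters are shown so that the elements of the classes can be compared. The windows are the 170 bases before the RefSeq start (build GRCm38.p6), written 5′ to 3′ on the strand of the gene. Capitals mark matches to the ISRE core, GAAA and GAAA with any 2 bases between, on either strand, and to the GAS, TTC and GAA with any 3 bases between, which reads the same on both strands; matches may overlap one another. Ifit3, Isg15 and Bst2 are type I members that hold an ISRE core, as 8 of the 26 with a promoter entry did. They are thus not typical of their class. Gbp2, Gbp3, Irgm1 and Igtp are the whole type II class, and Irgm2 is a close relative of Igtp from the list of other type II genes. Where a gene had several starts, the window with the most matches is shown.
Ifit3, chr19:34583359-34583528, plus strand: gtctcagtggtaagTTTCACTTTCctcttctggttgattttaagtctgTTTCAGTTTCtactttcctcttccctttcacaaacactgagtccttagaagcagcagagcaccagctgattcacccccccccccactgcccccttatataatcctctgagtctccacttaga
Isg15, chr4:156200819-156200988, minus strand: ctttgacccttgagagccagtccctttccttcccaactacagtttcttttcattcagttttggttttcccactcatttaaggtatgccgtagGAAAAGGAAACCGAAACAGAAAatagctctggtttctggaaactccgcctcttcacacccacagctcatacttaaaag
Bst2, chr8:71537473-71537642, minus strand: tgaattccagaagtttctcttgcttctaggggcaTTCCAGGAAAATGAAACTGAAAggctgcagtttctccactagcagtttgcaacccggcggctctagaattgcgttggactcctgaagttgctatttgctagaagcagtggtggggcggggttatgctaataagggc
Gbp2, chr3:142620493-142620662, plus strand: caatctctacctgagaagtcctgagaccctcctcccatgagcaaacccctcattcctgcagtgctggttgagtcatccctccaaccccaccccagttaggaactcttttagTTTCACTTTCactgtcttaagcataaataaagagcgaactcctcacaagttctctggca
Gbp3, chr3:142559874-142560043, plus strand: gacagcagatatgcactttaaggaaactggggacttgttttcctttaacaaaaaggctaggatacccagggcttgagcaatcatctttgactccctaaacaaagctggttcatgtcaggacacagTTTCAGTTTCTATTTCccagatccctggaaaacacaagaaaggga
Irgm1, chr11:48871421-48871590, minus strand: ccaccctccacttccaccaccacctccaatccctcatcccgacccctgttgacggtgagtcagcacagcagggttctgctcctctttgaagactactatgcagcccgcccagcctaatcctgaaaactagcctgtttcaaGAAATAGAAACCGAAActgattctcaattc
Igtp, chr11:58199386-58199555, plus strand: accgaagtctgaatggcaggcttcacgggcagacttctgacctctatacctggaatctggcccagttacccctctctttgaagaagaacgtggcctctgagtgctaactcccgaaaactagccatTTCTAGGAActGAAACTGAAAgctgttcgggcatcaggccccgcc
Irgm2, chr11:58214807-58214976, plus strand: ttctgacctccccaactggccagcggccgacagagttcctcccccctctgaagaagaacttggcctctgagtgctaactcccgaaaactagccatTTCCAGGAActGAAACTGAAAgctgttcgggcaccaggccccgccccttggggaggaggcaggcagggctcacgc
In 250 bases before the start, an ISRE core was found in 12 of the 30 members with a promoter entry (40%), against 3.46% of 27025 genes with an entry. All 4 type II members held one, at 15 to 59 bases before the start, and 8 of 26 type I members did (30.8%). A GAS was found in 4 of the 30 members (13.3%), against 8.13% of all genes. Of the type II members only Igtp held both, with the GAS beginning 45 and the ISRE core 34 bases before the start. The same spacing of 11 bases between the beginnings of the elements was found in Irgm2, Tgtp1 and Tgtp2, which encode related GTPases. Of the 9 other type II genes with an entry, 5 held both elements (55.6%), against 0.4% of all genes. Isg15 held 3 overlapping ISRE cores between 78 and 57 bases before the start, and Bst2 held a GAS that ran into a pair of overlapping ISRE cores. The window of Irf7 held neither set of letters. Dhx58, Ifi27, Oas2, Parp14, Parp9, Rtp4, Usp18 and Zbp1 had no entry. These shares describe sequence, and binding was not measured.

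**Figure D1:**
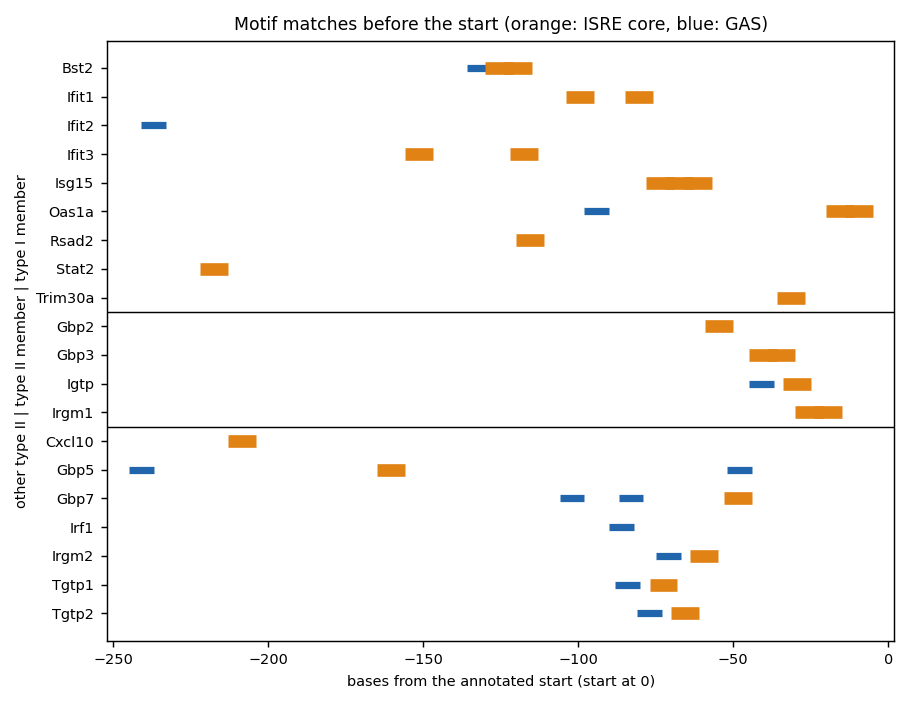
Positions of ISRE core matches (orange) and GAS matches (blue) in the 250 bases before the annotated start, in bases on the horizontal axis. Members with a match and other type II genes with a match are in rows, grouped by class. The 4 type II members have their ISRE cores within 59 bases of the start, and Igtp, Irgm2, Tgtp1 and Tgtp2 share the spacing of GAS and ISRE core.

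The interferon-stimulated genes varied mainly from library to library, and the genotypes overlapped in every member tested. The type II GTPases Gbp2, Igtp and Irgm1 were highest in Mettl5-/- library 1, as were 14% of all 12885 genes tested, and Stat2 was highest in Mettl5-/- library 2. The other 34 of the 38 members had their highest value in wild-type library 3, against 14.1% of all genes tested, and they included 33 of the 34 type I members. The other wild-type libraries sat at the opposite end, with 19 members lowest in library 2 and 11 lowest in library 1. Of all 12885 genes tested, 2234 were lowest in wild-type library 2 and 1679 in wild-type library 1. Of 14 microglial markers, 13 were also highest in wild-type library 3, counting a tie, and their part in the pattern was not tested. Fewer cells of a type and less RNA per cell cannot be told apart in bulk tissue. Mettl5-/- library 3 was second in 26 members, against 1803 of the 12885 genes tested. All 3 knockout libraries lay above wild-type libraries 1 and 2 and below wild-type library 3 in 19 members, 18 of them of type I. This last order was not counted over all genes. The spread within a genotype was large for these genes. The median SD of log2(FPKM + 1) over the 32 members tested was 0.28 among the knockouts and 0.67 among the wild types, against 0.14 and 0.13 for all genes tested (n = 3 libraries each).

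**Figure D2:**
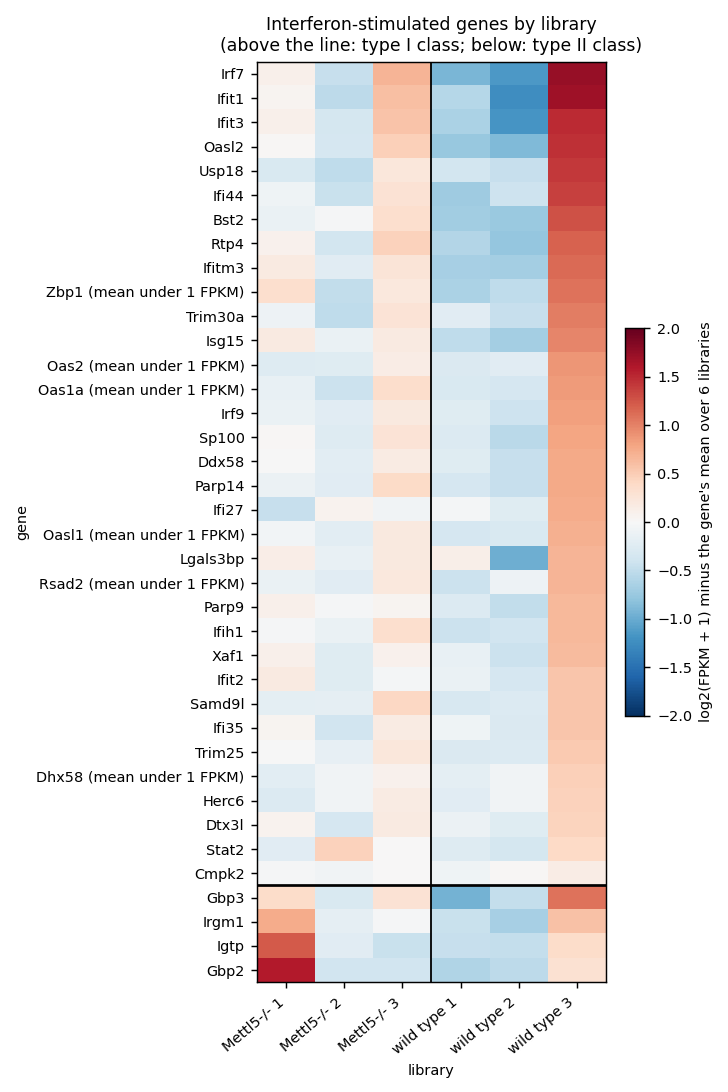
Level of each of the 38 genes (rows) in each library (columns) as log2(FPKM + 1) minus the gene's mean over 6 libraries. Red is above and blue below that mean. Gbp2, Igtp and Irgm1 are reddest in Mettl5-/- 1, and the type I genes other than Stat2 are reddest in wild type 3.

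Among the signal transducers and transcription factors, Irf7, the amplifier of the type I response, had the widest range. Irf7 had 4.63, 2.80 and 7.46 FPKM in Mettl5-/- libraries 1, 2 and 3, against 1.79, 1.37 and 16.7 FPKM in wild-type libraries 1, 2 and 3. The knockouts lay between the pair of low wild types and the high one, and the highest library was 12.2 times the lowest. Irf9, the DNA-binding part of the complex with STAT2, had 6.73, 6.19 and 8.61 FPKM in the Mettl5-/- libraries, against 6.13, 5.35 and 13.9 FPKM in the wild-type libraries. Stat2, its partner, had 7.02, 11.9 and 8.43 FPKM in the Mettl5-/- libraries, against 6.82, 6.34 and 11.3 FPKM in the wild-type libraries. Stat2 was thus high in a library of each genotype, and it was the 1 type I member whose peak was in a knockout, the library of high Pcp2 and Gabra6. Without that library its log2 fold change was -0.04. With all 6 libraries the log2 fold changes were 0.21 (SE 0.80) for Irf7, -0.11 (SE 0.32) for Irf9 and 0.15 (SE 0.24) for Stat2, none past the threshold. Irf7, like Isg15, Ifit1, Bst2 and Oasl2 below, was chosen for values per library after its values were seen. The gene model of Stat2 overlaps that of Apof by 753 bases, with strand handling in the counting not given in the sources used here.

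The sensors of foreign nucleic acid were low. Ddx58, which encodes RIG-I, the sensor of short double-stranded RNA ends, had 2.06, 1.67 and 2.47 FPKM in the Mettl5-/- libraries, against 1.6, 1.23 and 4.23 FPKM in the wild-type libraries. Ifih1, which encodes MDA5, the sensor of long double-stranded RNA, had 1.17, 1.0 and 1.76 FPKM in the Mettl5-/- libraries, against 0.63, 0.68 and 2.43 FPKM in the wild-type libraries. In both genes every knockout was above wild-type libraries 1 and 2 and below wild-type library 3. Dhx58 (LGP2, a regulator of both) and Zbp1, a sensor of Z-form nucleic acid, had means under 1 FPKM and were not tested. With Oas1a, Oas2, Oasl1 and Rsad2 they make up the 6 untested members, of which Rsad2 had the highest mean, 0.900 FPKM, and all 6 were highest in wild-type library 3.

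The Ifit genes, a cluster on chromosome 19, belong to a family whose proteins bind foreign RNA and block its translation. Ifit3 (gene ID 15959) had 7.67, 5.37 and 11.0 FPKM in the Mettl5-/- libraries, against 4.22, 2.57 and 21.9 FPKM in the wild-type libraries. Ifit1 had 2.66, 1.47 and 4.37 FPKM in the Mettl5-/- libraries, against 1.39, 0.49 and 10.4 FPKM in the wild-type libraries. Both followed the order of Irf7 over the 6 libraries. Ifit2 had a narrower range, with 4.07, 2.79 and 3.34 FPKM in the Mettl5-/- libraries, against 3.10, 2.55 and 5.59 FPKM in the wild-type libraries. The log2 fold changes were 0.21 (SE 0.70) for Ifit3 and -0.07 (SE 0.24) for Ifit2. Of the Oas family, whose founding enzymes make the messenger that activates RNase L, Oasl2 was the 1 member tested. Oasl2 had 3.98, 2.86 and 5.80 FPKM in the Mettl5-/- libraries, against 1.90, 1.65 and 12.4 FPKM in the wild-type libraries. Ifit3 has a near-identical neighbour, Ifit3b, and the gene model of Ifit1 lies inside that of Ifit1bl1, so the division of reads between these copies is uncertain, as it is within the Oas family.

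The ISG15 system attaches the ubiquitin-like protein ISG15 to other proteins, and USP18 removes it and restrains the type I receptor. Isg15 had 5.34, 4.09 and 5.33 FPKM in the Mettl5-/- libraries, against 2.93, 2.49 and 10.0 FPKM in the wild-type libraries. Usp18 had 0.93, 0.67 and 1.78 FPKM in the Mettl5-/- libraries, against 0.85, 0.73 and 5.31 FPKM in the wild-type libraries. Isg15 was higher in each knockout than in wild-type libraries 1 and 2, while Usp18 was under 1 FPKM in all but the libraries numbered 3. Herc6, the main mouse ligase for ISG15, had 1.5, 1.89 and 2.39 FPKM in the Mettl5-/- libraries, against 1.6, 1.89 and 3.18 FPKM in the wild-type libraries. Of the 5 tested genes of this group, which also holds the ubiquitin ligase genes Trim25 and Trim30a, 2 had a positive and 3 a negative log2 fold change (range -0.39 to 0.15). Those of the ADP-ribosylation genes ran from -0.05 to 0.08; here Parp9 and Dtx3l encode partners in one complex, and Parp14 encodes another ADP-ribosyltransferase. Parp9 had 1.68, 1.47 and 1.59 FPKM in the Mettl5-/- libraries, against 1.07, 0.78 and 2.92 FPKM in the wild-type libraries. Dtx3l had 1.77, 1.07 and 1.99 FPKM in the Mettl5-/- libraries, against 1.42, 1.21 and 2.58 FPKM in the wild-type libraries. Parp9 again had its knockouts between the wild types, while Dtx3l had its lowest value in Mettl5-/- library 2. Their gene models share 558 bases.

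Ifitm3, Lgals3bp and Ifi27 were the most abundant members, with means over the 6 libraries of 24.1, 21.1 and 17.4 FPKM. Ifitm3, which hinders the fusion of viruses with endosomes, had 24.7, 18.4 and 26.2 FPKM in the Mettl5-/- libraries, against 13.4, 13.2 and 48.6 FPKM in the wild-type libraries. Bst2, which encodes tetherin and holds budding viruses at the cell surface, had 4.38, 4.80 and 6.40 FPKM in the Mettl5-/- libraries, against 2.65, 2.51 and 13.2 FPKM in the wild-type libraries. In both genes the wild types split into a low pair and a high library with the knockouts in between. Lgals3bp, a secreted galectin-binding glycoprotein, had 21.9, 17.8 and 23.0 FPKM in the Mettl5-/- libraries, against 21.8, 9.61 and 32.5 FPKM in the wild-type libraries. Ifi27 had 11.9, 17.5 and 15.9 FPKM in the Mettl5-/- libraries, against 16.2, 14.1 and 28.8 FPKM in the wild-type libraries. Lgals3bp was low in 1 wild-type library only, and Ifi27 was lowest in a knockout. Ifi27 had the lowest unadjusted p of all members, 0.279, with a log2 fold change of -0.31 (SE 0.27), and its model overlaps Ifi27l2a by 6057 bases. Ifi35 had 2.01, 1.23 and 2.25 FPKM in the Mettl5-/- libraries, against 1.76, 1.38 and 3.27 FPKM in the wild-type libraries. The other type I members tested were Rtp4, a receptor chaperone, Sp100, a nuclear body protein, Xaf1, a promoter of apoptosis, Samd9l and Ifi44, with Parp14, Trim25 and Trim30a from the groups above. All 8 were highest in wild-type library 3, and their log2 fold changes ran from -0.22 for Trim30a to 0.12 for Rtp4.

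Cmpk2, a mitochondrial nucleotide kinase gene, stood apart from the other type I members. It had 8.23, 7.89 and 8.35 FPKM in the Mettl5-/- libraries, against 7.75, 8.53 and 9.34 FPKM in the wild-type libraries. Its highest library was 1.21 times its lowest, the smallest such ratio of the 38, although wild-type library 3 was still the highest. Its neighbour on chromosome 12 is Rsad2, which encodes viperin, a maker of a chain-terminating nucleotide, and Rsad2 had 0.68, 0.57 and 1.14 FPKM in the Mettl5-/- libraries, against 0.36, 0.72 and 1.93 FPKM in the wild-type libraries. The log2 fold change of Cmpk2 was -0.06 (SE 0.09).

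The 4 type II GTPases, a family that acts on the vacuoles of intracellular pathogens, were highest among the knockouts in Mettl5-/- library 1 and highest among the wild types in library 3. Gbp2 had 7.87, 1.26 and 1.28 FPKM in the Mettl5-/- libraries, against 0.96, 1.06 and 2.66 FPKM in the wild-type libraries. Igtp had 10.4, 3.15 and 2.58 FPKM in the Mettl5-/- libraries, against 2.54, 2.51 and 5.27 FPKM in the wild-type libraries. In both, 1 knockout stood alone and the other knockouts lay within the range of the wild types. Irgm1 had 10.7, 5.13 and 5.80 FPKM in the Mettl5-/- libraries, against 4.10, 3.36 and 9.39 FPKM in the wild-type libraries. Gbp3 had 3.79, 2.0 and 3.54 FPKM in the Mettl5-/- libraries, against 0.92, 1.68 and 6.85 FPKM in the wild-type libraries. Irgm1 was high in a library of each genotype, and Gbp3 had its knockouts between the low wild-type pair and the high one, as many type I genes did. The log2 fold changes were 0.54 (SE 0.57) for Gbp2, 0.37 (SE 0.47) for Igtp, 0.36 (SE 0.38) for Irgm1 and 0.23 (SE 0.51) for Gbp3, none past the threshold. The guanylate-binding proteins are near copies of one another, so reads may be divided between them with error.

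**Figure D3:**
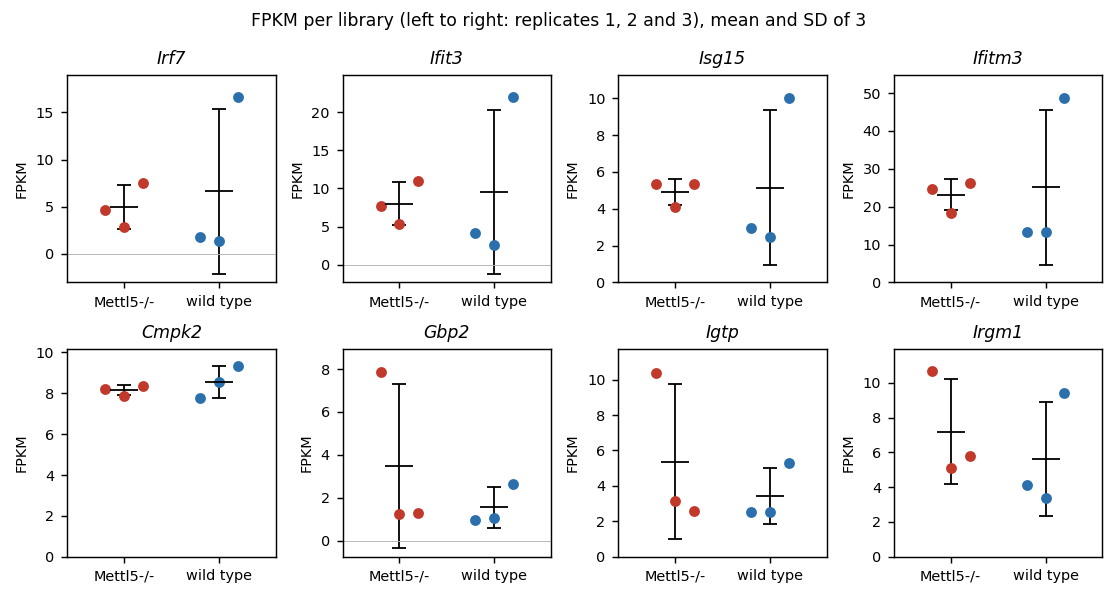
FPKM of 8 members in the 3 Mettl5-/- libraries (red, left) and the 3 wild-type libraries (blue, right), with replicates 1, 2 and 3 from left to right and the mean with SD in black. The wild types of Irf7, Ifit3, Isg15 and Ifitm3 split into a low pair and a high library, Cmpk2 is flat, and Gbp2 and Igtp peak in Mettl5-/- library 1.

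In the test between genotypes, limma called 0 of the 32 members at a Benjamini-Hochberg adjusted p of 0.05, and it called 0% of the 12885 genes. The lowest adjusted p among members was 0.843. Before adjustment, 0 members had p under 0.05, against 6.05% of all genes tested. In 0 of the 32 did the genotypes separate without overlap, against 11.9% of all genes tested. The log2 fold change was positive in 20 members and negative in 12, and its median was 0.05, against -0.003 over all genes. It was 0.02 over the 28 type I members tested and 0.37 over the 4 type II members. The 95% interval reached beyond 1 on the log2 scale, up or down, in 16 of the 32, as for Irf7 (-1.74 to 2.16) and Gbp2 (-0.81 to 1.90). In the other 16 it stayed within 1, as for Cmpk2 (-0.28 to 0.16) and Stat2 (-0.42 to 0.72).

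For the type I genes the median log2 fold change moved with each wild-type library left out, and furthest with wild-type library 3. That library was the highest wild type in all 38 members, so leaving it out raised every difference by itself. Leaving it out also changed the SE, from 0.80 to 0.33 for Irf7 and from 0.53 to 0.16 for Bst2. For Gbp2 the SE rose from 0.57 to 0.64. The counts that follow describe the remaining libraries and cannot decide whether the genotypes differ. Mettl5-/- library 3, of the same number as wild-type library 3, was kept here. With wild-type library 3 left out, 29 members were tested and 12 had an unadjusted p under 0.05. All 12 were higher in the knockout, against 5.22% of all genes (1.98% on the higher side). They were Ifit1, Irf7, Oasl2, Ifit3, Bst2, Rtp4, Ifitm3, Isg15, Gbp3, Parp9, Ifih1 and Irgm1. The genotypes then had no overlap in 20 of the 29, all higher in the knockout, against 24.5% of all genes (10.9% on the higher side). The 6 largest differences were 1.14 (SE 0.33) for Irf7, 1.02 (SE 0.30) for Ifit3, 0.95 (SE 0.36) for Ifit1, 0.87 (SE 0.24) for Oasl2, 0.83 (SE 0.64) for Gbp2 and 0.83 (SE 0.26) for Gbp3 on the log2 scale. Bst2 stood at 0.78 (SE 0.16), Ifitm3 at 0.74 (SE 0.16) and Isg15 at 0.67 (SE 0.15). Again 0 members passed adjustment (lowest adjusted p 0.798 in limma), while 0.00776% of all genes did. The median was 0.39 over type I and 0.78 over type II members. Without wild-type library 2 or wild-type library 1 in its place, the type I median was -0.25 and -0.15 in turn, and without Mettl5-/- library 3 it was -0.09.

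Mettl5-/- library 3, which shares its number with wild-type library 3, was the highest knockout in 27 of the 34 type I members and was kept in the comparison without that wild type. Both libraries numbered 3 were therefore left out together, an alternative chosen after seeing the data. Between these libraries all 38 members were lower in the knockout, so leaving both out raised the difference by itself. The counts that follow describe the remaining libraries and cannot decide whether the genotypes differ. Then 27 members were tested and 10 had an unadjusted p under 0.05, all higher in the knockout, against 3.97% of all genes (1.77% on the higher side). They were Bst2, Ifitm3, Isg15, Oasl2, Irf7, Ifit3, Rtp4, Gbp3, Irgm1 and Parp9. The genotypes had no overlap in 18 of the 27, all higher in the knockout, against 34.9% of all genes (16.7% on the higher side). The differences were smaller than with Mettl5-/- library 3 kept for Irf7, at 0.85 (SE 0.23), Ifit3, at 0.78 (SE 0.24), and Bst2, at 0.64 (SE 0.13). Again 0 members passed adjustment, with a lowest adjusted p of 0.914 in limma. The median was 0.29 over type I and 0.90 over type II members.

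The type II difference rested on Mettl5-/- library 1. With it left out, the median over the 4 type II members was -0.02 on the log2 scale, with -0.11 for Gbp2, -0.15 for Igtp, 0.07 for Irgm1 and 0.11 for Gbp3. Then 0 members had an unadjusted p under 0.05, against 4.91% of all genes.

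**Figure D4:**
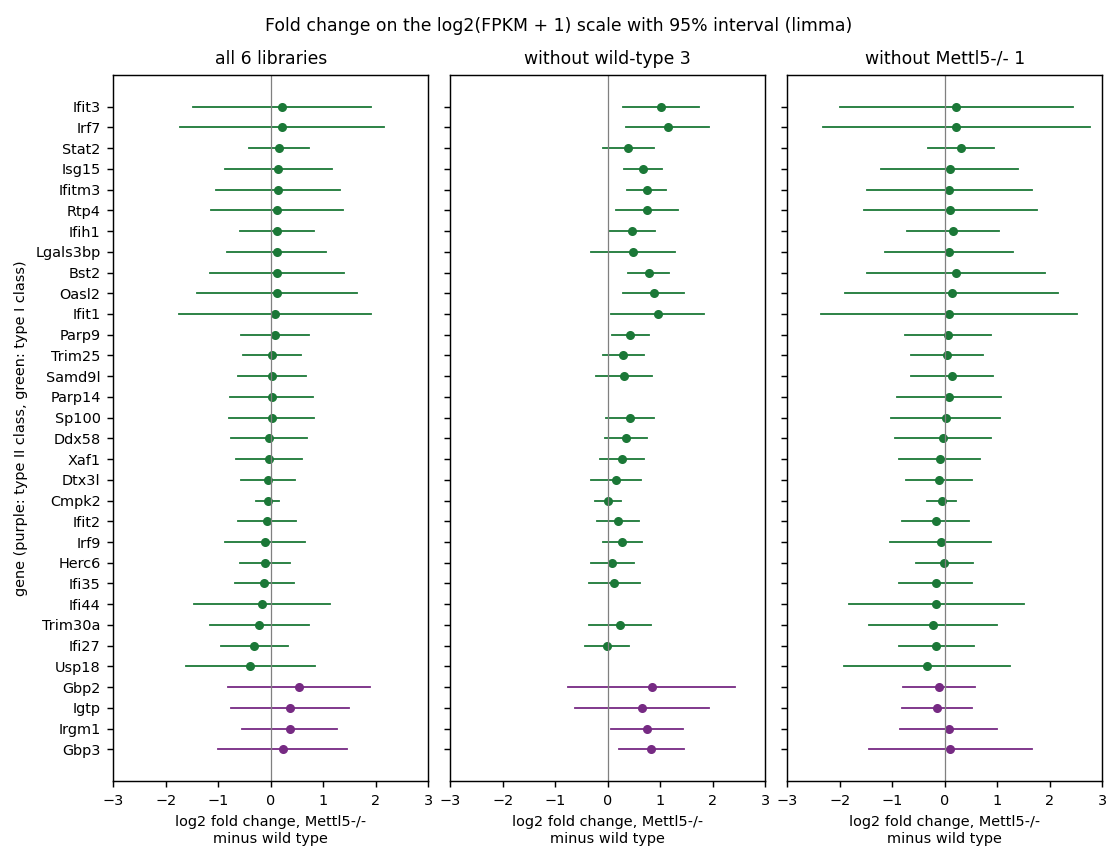
Log2 fold change (Mettl5-/- minus wild type, on the log2(FPKM + 1) scale) with its 95% interval for each tested member, with all 6 libraries, without wild-type 3 and without Mettl5-/- 1. Green marks type I and purple type II genes; a gene under a mean of 1 FPKM in a panel has no point there. Without wild-type 3 the type I points lie to the right of 0 apart from Ifi27, with Cmpk2 at 0.00, and without Mettl5-/- 1 the type II points lie around 0.

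The classes can be read per library as a level, the median over a class of log2(FPKM + 1) minus each gene's mean over the 6 libraries. The type I level was -0.02, -0.23 and 0.21 in Mettl5-/- libraries 1, 2 and 3, against -0.30, -0.42 and 0.76 in the wild-type libraries in the same order. The type II level was 0.99, -0.27 and -0.20 in the Mettl5-/- libraries, against -0.53, -0.50 and 0.47 in the wild-type libraries. Type II minus type I was thus 1.0 in Mettl5-/- library 1, and it lay between -0.42 and -0.04 in the other 5 libraries. Genes of each class outside the members gave similar levels. Their lists were also chosen with earlier results of these data known. Some of these genes are near copies of members, as Ifit3b is of Ifit3, so the lists are not independent of the members. The 26 other type I genes stood at -0.05, -0.08 and 0.07 in the Mettl5-/- libraries, against -0.21, -0.24 and 0.43 in the wild-type libraries. The 12 other type II genes stood at 0.74, -0.25 and -0.08 in the Mettl5-/- libraries, against -0.46, -0.48 and 0.35 in the wild-type libraries. In each of these lists Mettl5-/- library 2 lay above wild-type library 2, and Mettl5-/- library 3 lay below wild-type library 3.

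Libraries of the same number deviated together across all genes, so the genotypes were also compared within numbers. Between the libraries numbered 1, 35 of the 38 members were higher and 3 lower in the knockout, a difference in level of 0.33 over all members. Between those numbered 2, 27 were higher and 10 lower, a difference of 0.23. Between those numbered 3, 0 were higher and 38 lower, a difference of -0.55. The direction among the members therefore turned between numbers. Over all genes tested the level was 0.007, 0.003 and -0.022 in Mettl5-/- libraries 1, 2 and 3. In the wild-type libraries it was 0.004, 0.010 and -0.014 in the same order. Genes higher and lower within a number were not counted over all genes. In limma with a block for the number, 0 members were at an unadjusted p under 0.05, against 14.3% of all genes.

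**Figure D5:**
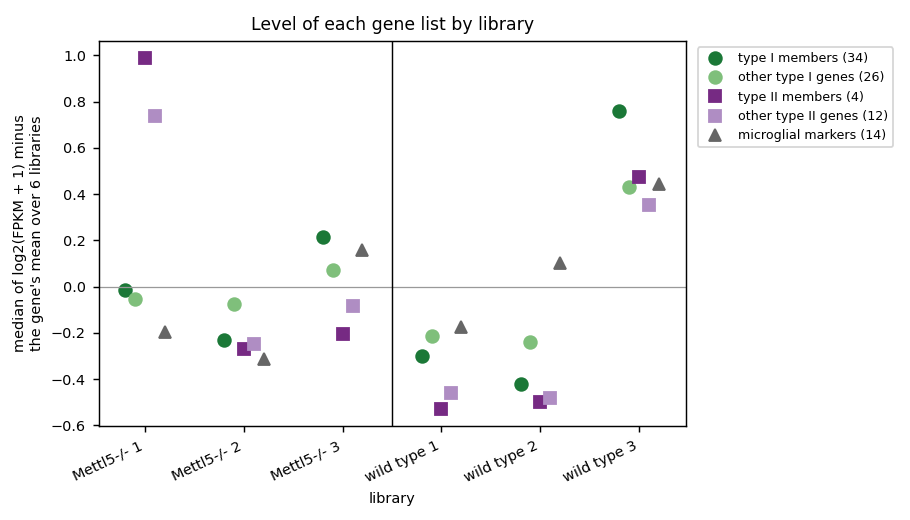
Level of each gene list (median over its genes of log2(FPKM + 1) minus the gene's mean over 6 libraries) in the 3 Mettl5-/- libraries (left of the line) and the 3 wild-type libraries (right). Both type II lists peak in Mettl5-/- 1, at 0.99 and 0.74, and both type I lists peak in wild type 3, at 0.76 and 0.43; microglial markers are shown for comparison.

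When all 12885 genes were ranked by how far a library stood above the highest of the other 5, listed interferon-stimulated genes led in Mettl5-/- library 1 and in wild-type library 3. Among the 12885 were 32 members, 26 other type I genes and 12 other type II genes. These lists were chosen with earlier results of these data known. In Mettl5-/- library 1, 9 of the first 50 genes were members or other listed interferon-stimulated genes, all of type II. Gbp4 led at 1.92 above the next library on the log2 scale, followed by Gbp2 at 1.28, Gbp5 at 0.97, Igtp at 0.86 and Tgtp1 at 0.86. In wild-type library 3, 29 of the first 50 were listed, 28 of type I and 1, Gbp3, of type II. The first was Ifi27l2a, 1.22 above the next library, followed by Usp18 at 1.18, Ifi44 at 1.09 and Ifit1 at 1.09. Each of the other 4 libraries had 0 listed genes among its first 50. Of the genes named here, Gbp4 passed the filter of 1 FPKM only through Mettl5-/- library 1. Usp18 and Ifi44 passed it only through wild-type library 3. This ranking describes single libraries and is not a test of genotype.

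Genes upstream of the members were read in the same libraries. Of 11 interferon genes listed, 6 had a row, and their values ran from 0 to 0.06 FPKM, so none was tested. Of the receptors and Janus kinases, 8 were tested and 0 had an unadjusted p under 0.05, with a median log2 fold change of 0.01. Ifnar1, a chain of the type I receptor, had 15.3, 15.1 and 17.4 FPKM in the Mettl5-/- libraries, against 15.6, 13.2 and 15.8 FPKM in the wild-type libraries. Ifnar2, the other chain, had 12.5, 12.6 and 12.2 FPKM in the Mettl5-/- libraries, against 12.5, 10.4 and 11.6 FPKM in the wild-type libraries. Il10rb, a chain of the interferon lambda receptor, averaged lower in the knockout without passing the threshold (log2 fold change -0.20, SE 0.13). Neither chain of the type I receptor was highest in wild-type library 3.

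Sensing and adaptor genes had 16 tested members and 0 at an unadjusted p under 0.05, with a median log2 fold change of -0.06. Those of lowest p were Ticam1, the adaptor TRIF (-0.27, SE 0.14), Mavs, the mitochondrial adaptor of RIG-I (-0.23, SE 0.13), and Tmem173, which encodes STING (-0.21, SE 0.16). Of the 11 tested restraints of the pathway 1 had an unadjusted p under 0.05, against 6.05% of all genes. This was Trex1, which degrades cytosolic DNA. Trex1 had 8.76, 9.09 and 9.48 FPKM in the Mettl5-/- libraries, against 11.2, 10.4 and 10.6 FPKM in the wild-type libraries. Its log2 fold change was -0.21 (SE 0.08), with an adjusted p of 0.79 in limma. The genotypes did not overlap in 4 of the 11, with Trex1 and Rnaseh2b lower and Nlrx1 and Pias1 higher in the knockout, against 11.9% of all genes. Nlrx1 (0.23, SE 0.11) and Rnaseh2c (-0.23, SE 0.11), a subunit of ribonuclease H2, were next in p.

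Among the 26 other type I genes tested, 1 had an unadjusted p under 0.05, against 6.05% of all genes. This was Ifitm1, a paralog of Ifitm3, with 1.6, 2.69 and 1.24 FPKM in the Mettl5-/- libraries, against 3.13, 3.82 and 3.27 FPKM in the wild-type libraries. Ifitm1 thus did not follow Ifitm3: every knockout lay below every wild type, and wild-type library 3 did not stand out. Its log2 fold change was -0.66 (SE 0.19), with an adjusted p of 0.79. Tdrd7 was the other gene of the list without overlap, so the list had 2 of 26, against 11.9% of all genes. Tdrd7 (-0.20, SE 0.10) and Isg20 (-0.46, SE 0.24) came next, and the median over the list was -0.05. Of the 12 other type II genes tested, 11 had a positive log2 fold change and 0 an unadjusted p under 0.05, with a median of 0.38. Without Mettl5-/- library 1, 10 were tested and the median was -0.02, with 4 positive and 6 negative. Gbp4 had 7.58, 1.11 and 1.18 FPKM in the Mettl5-/- libraries, against 0.75, 0.57 and 1.26 FPKM in the wild-type libraries. Gbp5 had 5.0, 1.18 and 1.84 FPKM in the Mettl5-/- libraries, against 0.58, 0.91 and 2.06 FPKM in the wild-type libraries. Tgtp2 had 4.33, 1.66 and 1.59 FPKM in the Mettl5-/- libraries, against 0.76, 0.63 and 3.01 FPKM in the wild-type libraries. All 3 peaked in Mettl5-/- library 1, like Gbp2 and Igtp. Over every list 0 genes passed adjustment.

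Markers of cells that could carry these transcripts were also read per library. Neuronal, astrocyte, oligodendrocyte and microglial markers were present in all 6 libraries, with the 9 oligodendrocyte markers at their lowest sum, 2056 FPKM, in Mettl5-/- library 3. The 14 microglial markers summed to 169, 162 and 211 FPKM in Mettl5-/- libraries 1, 2 and 3, against 184, 215 and 250 FPKM in wild-type libraries 1, 2 and 3. None of the 14 was at 0 in any library. Their level was -0.20 in Mettl5-/- library 1, where the type II members stood at 0.99, and 0.45 in wild-type library 3, where the type I members stood at 0.76. Microglial markers were thus below their mean where the type II members peaked and above it where the type I members peaked. The 10 endothelial markers summed to 154, 140 and 141 FPKM in the Mettl5-/- libraries, against 144, 132 and 164 FPKM in the wild-type libraries. Their sum was thus the highest of each genotype in Mettl5-/- library 1 and in wild-type library 3. The largest part of it was Ly6c1 alone, at 84.8 and 86.8 FPKM in these libraries in turn. Of the 10 endothelial markers, 0 were highest in Mettl5-/- library 1 and 3 in wild-type library 3. The level of these markers, a median, was -0.09 and 0.05 in the same libraries in turn, and their part in the pattern was not tested. The 12 blood leukocyte markers summed to between 2.71 and 10.7 FPKM in the Mettl5-/- libraries, against between 4.94 and 8.86 FPKM in the wild-type libraries. Their sum was 4.75 FPKM in Mettl5-/- library 1 and 4.94 FPKM in wild-type library 3, neither of them the highest of its genotype. Only 3 of the 12 averaged 1 FPKM or more, so the sum says little of the others. Counting ties, wild-type library 3 was highest in 3 of the 12 and lowest in 3. Mettl5-/- library 1 was highest in 0 and lowest in 5. Hemoglobin and other red cell markers summed to between 11.8 and 567 FPKM in the Mettl5-/- libraries, against between 49.8 and 2834 FPKM in the wild-type libraries, with the highest sum in wild-type library 2.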

How the data were processed

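Messenger RNA captured by its poly(A) tail was sequenced from 3 Mettl5-/- and 3 wild-type brain samples, after Trizol extraction and with random hexamer priming per the labels' protocols. The authors deposited FPKM values with 2 decimals, 1 column for each library, per the file headers. Bowtie2, RSEM and mm10 are named in the submitters' processing notes, with versions, annotation release and strand settings not given in the sources used here. Reads of near copies are shared out by RSEM by estimated probability, which leaves such genes uncertain. Depth is unknown, so no counting interval is given, and no count model was run.

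Genotype differences were fitted with limma 3.58.1 in R 4.3.3 (lmFit, then eBayes with trend and robust options) on log2(FPKM + 1). The 12885 genes averaging 1 FPKM or more entered the fit. Tests were 2-sided, adjusted by Benjamini-Hochberg, and called under 0.05. Fold changes on this scale understate those of low genes. Lists are described by counts and medians, without a test. Alternatives were a pseudocount of 0.1, no filter, rescaling to a common sum, quantile normalization, a replicate block, leaving out each library, leaving out both libraries numbered 3 (added after seeing the data) and wider classes. Deviations of same-numbered libraries correlated at 0.485, 0.413 and 0.539, and the numbers were treated as pairs for that reason, since the labels do not say what they mark. The exact permutation and motif counts used Python 3.11.15 and SciPy 1.17.1. Promoters came from RefSeq (GRCm38.p6), matched by symbol for 30 of 38 members, and where a gene had several starts each was searched. Gene coordinates came from RefSeq on GRCm38, matched by gene ID. The limma fit was tested on simulated data with known fold changes. The simulated noise was drawn independently for each library, so shared deviations of same-numbered libraries were left out.

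The members, classes and lists were chosen with earlier results of these data known. Values per library were given for the 4 type II members, the 2 members of lowest p in each role group and the 5 of highest mean, and up to 3 genes of lowest p were named per pathway list; other genes with such values were chosen after their values were seen.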

Additional observations from a re-analysis of the deposited data

How the results depend on the processing

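No member passed an adjusted p of 0.05 in limma under any of the 12 alternative fits. The counts at an unadjusted p under 0.05 and without overlap were 0 under every alternative except leaving out libraries. Leaving out each in turn they ran from 0 to 12 and from 0 to 20, and without both libraries numbered 3 they were 10 and 18. The upper ends of the ranges came without wild-type library 3, and without wild-type library 1 there was 1 member without overlap, lower in the knockout. Leaving out each library in turn, the median log2 fold change ran from -0.23 to 0.43 over all members, from -0.25 to 0.39 over type I members and from -0.02 to 0.78 over type II members. With the classes widened it was -0.01 over type I and 0.37 over type II genes. With the replicate block the counts stayed at 0 and the lowest adjusted p among members named by the rule was 0.516, so the pairing changed no call. Leaving out each library, the median ran from -0.19 to 0.24 over other type I genes, from -0.097 to 0.040 over the restraints, from -0.016 to 0.69 over other type II genes and from -0.17 to 0.014 over sensing and adaptor genes. With no filter on low values the median of the restraints was 0.025, where 2 more genes of that list were tested. Without both libraries numbered 3 it was 0.029, and the log2 fold change was 0.25 for Ddx58, 0.050 for Dtx3l, 0.016 for Ifi35, 0.20 for Ifit2 and 0.15 for Irf9. A pseudocount of 0.1 gave Ddx58 a log2 fold change of 0.0017.

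The sign of single genes turned when a library was left out, with the log2 fold change running from -0.12 to 0.0036 for Cmpk2, -0.27 to 0.34 for Ddx58, -0.19 to 0.16 for Dtx3l, -0.11 to 0.87 for Gbp2 and -0.19 to 0.83 for Gbp3. It ran from -0.26 to 0.083 for Herc6, -0.30 to 0.12 for Ifi35, -0.069 to 0.47 for Ifih1, -0.25 to 0.20 for Ifit2, -0.33 to 1.02 for Ifit3 and -0.16 to 0.74 for Ifitm3. For Igtp it ran from -0.15 to 0.69, for Irf9 from -0.34 to 0.27, for Lgals3bp from -0.34 to 0.49, for Parp9 from -0.14 to 0.43 and for Stat2 from -0.035 to 0.39. The cause was not tested. With 3 libraries a genotype, of unknown depth, the spread between libraries limits what can be seen.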

Other observations

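Genes outside the interferon lists also stood out in both libraries, and they were chosen after their values were seen. Among the 50 genes furthest above the other 5 libraries in Mettl5-/- library 1 were Ch25h (0.68 above the next library on the log2 scale), an interferon-inducible cholesterol hydroxylase gene, Cd274 (0.64), which encodes PD-L1, Lrg1 (0.54) and Osmr (0.33), the oncostatin M receptor gene. The immediate early genes Egr1 (0.33) and Ier3 (0.48) and the clock gene Per1 (0.37) were in the same 50. Among the first 50 of wild-type library 3 were the macrophage and microglial genes Ly86 (0.51), Mpeg1 (0.46), Fcgr1 (0.45), Trem2 (0.43) and Aif1 (0.42), and Lgals9 (0.53), which encodes galectin 9. These are values of single libraries and were not compared between genotypes.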
